A study of Mus musculus with 24 samples.

Results

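RNA of the G1 control genes was followed in spermatogonia of the mouse testis at postnatal day 7. The genes comprise the D-type cyclins Ccnd1, Ccnd2 and Ccnd3, their kinases Cdk4 and Cdk6, the CDK inhibitors Cdkn1a, Cdkn1b, Cdkn2c and Cdkn2d, and the retinoblastoma gene Rb1. They were chosen by gene name, and all 10 were present in both expression tables, among 23177 listed genes in the table of the Zbtb16 mutant and 21688 in that of the Sox3 mutant. D-type cyclins bind CDK4 or CDK6 and the resulting kinases phosphorylate RB1, which releases E2F transcription factors and lets the cell enter S phase. Proteins of the INK4 family, such as those of Cdkn2c and Cdkn2d, bind CDK4 and CDK6 directly, whereas the CIP/KIP proteins of Cdkn1a (p21) and Cdkn1b (p27) bind cyclin-CDK complexes. In the testis, spermatogonia pass through a series of mitotic divisions before meiosis.

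RNA sequencing covered 24 libraries, 3 for each of 8 groups. Immunomagnetic sorting of P7 testes yielded a THY1+ fraction of undifferentiated spermatogonia, called uSPG, and a KIT+ fraction of spermatogonia in differentiation, called dSPG. The Zbtb16 table compared Zbtb16 null mice, which are homozygous for the luxoid allele (Zbtb16 lu/lu), with wild-type (WT) mice, and the Sox3 table compared Sox3 conditional knockout (cKO) mice with their WT mice. In the cKO, Ddx4-Cre, which is active in male germ cells, deleted a floxed Sox3 allele. The mice were on a C57BL/6J background and testes of 3 mice were pooled for each cell isolation, so that a library is a pool and not an animal. The study describes its RNA-seq replicates as independent biological ones, while the labels only number them.

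Levels are FPKM, that is, fragment counts divided by transcript length and by library size. Tests were done with limma on log2(FPKM + 0.1), where the added 0.1 understates changes of low genes. A gene was called where its Benjamini-Hochberg adjusted p over all tested genes was at most 0.05 and its change at least 1.5-fold, and log2 changes are given with their standard error (SE). Libraries of the Zbtb16 table held an estimated 25.9 to 35.2 M reads. In the Sox3 table the 4 libraries of replicate 1 held 28.2 to 31.9 M reads, and the 8 of replicates 2 and 3 held 11.0 to 14.9 M reads. The lowest estimate behind a value of the 10 genes was 31 reads, for Cdkn1a. In bulk RNA, fewer cells of a type and less RNA per cell cannot be told apart.

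The targeted genes and sorting markers were examined first. Zbtb16 was at 42.0 to 58.7 FPKM in WT and 15.6 to 18.2 FPKM in null THY1+ uSPG, so RNA of the locus remained in the null. Sox3 was at 6.28 to 24.4 FPKM in WT and at 0 to 0.0820 FPKM in cKO libraries. Thy1 and Kit followed the labels in the Zbtb16 table and in the cKO. In the WT libraries of the Sox3 table they went against them, with Thy1 at 0.213 to 0.254 FPKM in the libraries labelled THY1+ and 3.59 to 4.06 FPKM in those labelled KIT+, and Kit at 45.6 to 80.1 and 13.0 to 18.8 FPKM. These libraries are called "WT labelled THY1+" and "WT labelled KIT+" and were not regrouped. Markers of other testis cells were present in both fractions and none was at 0 throughout a group. From THY1+ uSPG to KIT+ dSPG in WT of the Zbtb16 table, the summed FPKM of 7 macrophage markers was 770 to 867 and then 5.83 to 7.70, and that of 6 Leydig cell markers was 83.1 to 119 and then 1215 to 2272.

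Start-site sequences were taken from RefSeq (GRCm38.p6), which gave 10 windows for 7 of the 10 genes, each of 300 bases from 250 before to 50 after the annotated start. No window was at hand for Ccnd1, Ccnd2 and Rb1. Those of Cdk6 (chr5:3343643-3343942, plus strand) and Cdkn2c are shown, as genes that differed between Sox3 cKO and WT libraries in the comparisons described further on. Cdkn1b was also called, between cKO KIT+ dSPG and WT labelled THY1+, and its window is not shown. Cdkn2c has an upstream window (chr4:109666707-109667006, minus strand) and a downstream window (chr4:109665323-109665622, minus strand), and its FPKM is a gene-level value that does not separate them. Capitals mark matches on either strand to the SOX core AACAAT, the E2F core TTTCGCG and the GC box GGGCGG, none of which overlapped another.
Cdk6: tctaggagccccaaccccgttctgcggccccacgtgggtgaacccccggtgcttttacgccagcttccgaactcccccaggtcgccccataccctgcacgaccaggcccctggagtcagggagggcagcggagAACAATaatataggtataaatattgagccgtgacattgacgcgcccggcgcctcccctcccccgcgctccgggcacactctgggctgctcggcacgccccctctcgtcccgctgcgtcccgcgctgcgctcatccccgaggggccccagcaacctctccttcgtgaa
Cdkn2c upstream start: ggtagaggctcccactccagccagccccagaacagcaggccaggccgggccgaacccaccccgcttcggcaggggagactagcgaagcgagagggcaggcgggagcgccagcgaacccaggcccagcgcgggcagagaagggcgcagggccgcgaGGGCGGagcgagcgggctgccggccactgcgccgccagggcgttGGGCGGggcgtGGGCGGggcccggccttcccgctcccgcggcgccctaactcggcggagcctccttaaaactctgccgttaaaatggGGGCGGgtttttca
Cdkn2c downstream start: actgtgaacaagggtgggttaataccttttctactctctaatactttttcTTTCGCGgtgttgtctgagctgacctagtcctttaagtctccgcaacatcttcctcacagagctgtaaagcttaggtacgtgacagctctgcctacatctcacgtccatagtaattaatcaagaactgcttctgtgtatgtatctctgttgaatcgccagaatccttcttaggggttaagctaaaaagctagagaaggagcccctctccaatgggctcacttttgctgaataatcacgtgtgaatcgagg
The Cdk6 window held the SOX core 117 bases before its start. The downstream Cdkn2c window held the E2F core 200 bases before its start, and the upstream one held 4 GC boxes. Among 32851 promoter windows of the same length, 10.7% held the SOX core, 0.849% the E2F core and 35.7% the GC box. The other 7 windows of these genes held neither the SOX core nor the E2F core. The SOX core was thus in the Cdk6 window alone of the 10 windows, which is near its 10.7% over all promoter windows. GC boxes were common among them, with 5 in the window of Cdkn2d, 3 in that of Cdk4 and 1 in that of Cdkn1b. Each Ccnd3 window held 2, and those of Cdkn1a held 0 and 2. The motifs were chosen after the sequences had been seen, and a match describes letters, not a bound site.

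Levels were compared between genes first, since FPKM are per length. Among WT THY1+ uSPG libraries in the Zbtb16 table, Cdk4 was the most abundant of the 10 genes at a mean of 76.7 FPKM. It was followed by Ccnd2 at 58.7, Ccnd1 at 25.0 and Rb1 at 20.4 FPKM, and no library ranges of neighbours in this order overlapped. Ccnd3, Cdkn1b, Cdk6, Cdkn2c and Cdkn2d followed at means of 7.21 to 4.98 FPKM, where each gene overlapped the next. Cdkn1a was lowest at 2.37 FPKM. In WT KIT+ dSPG Cdk4 again led at 56.9 FPKM, and Ccnd1 at 28.6 FPKM stood above Ccnd2 at 19.9 FPKM without overlap. Cdkn1a was again lowest at 0.745 FPKM. The plot of FPKM by library shows these levels in all groups.

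**Figure D1:**
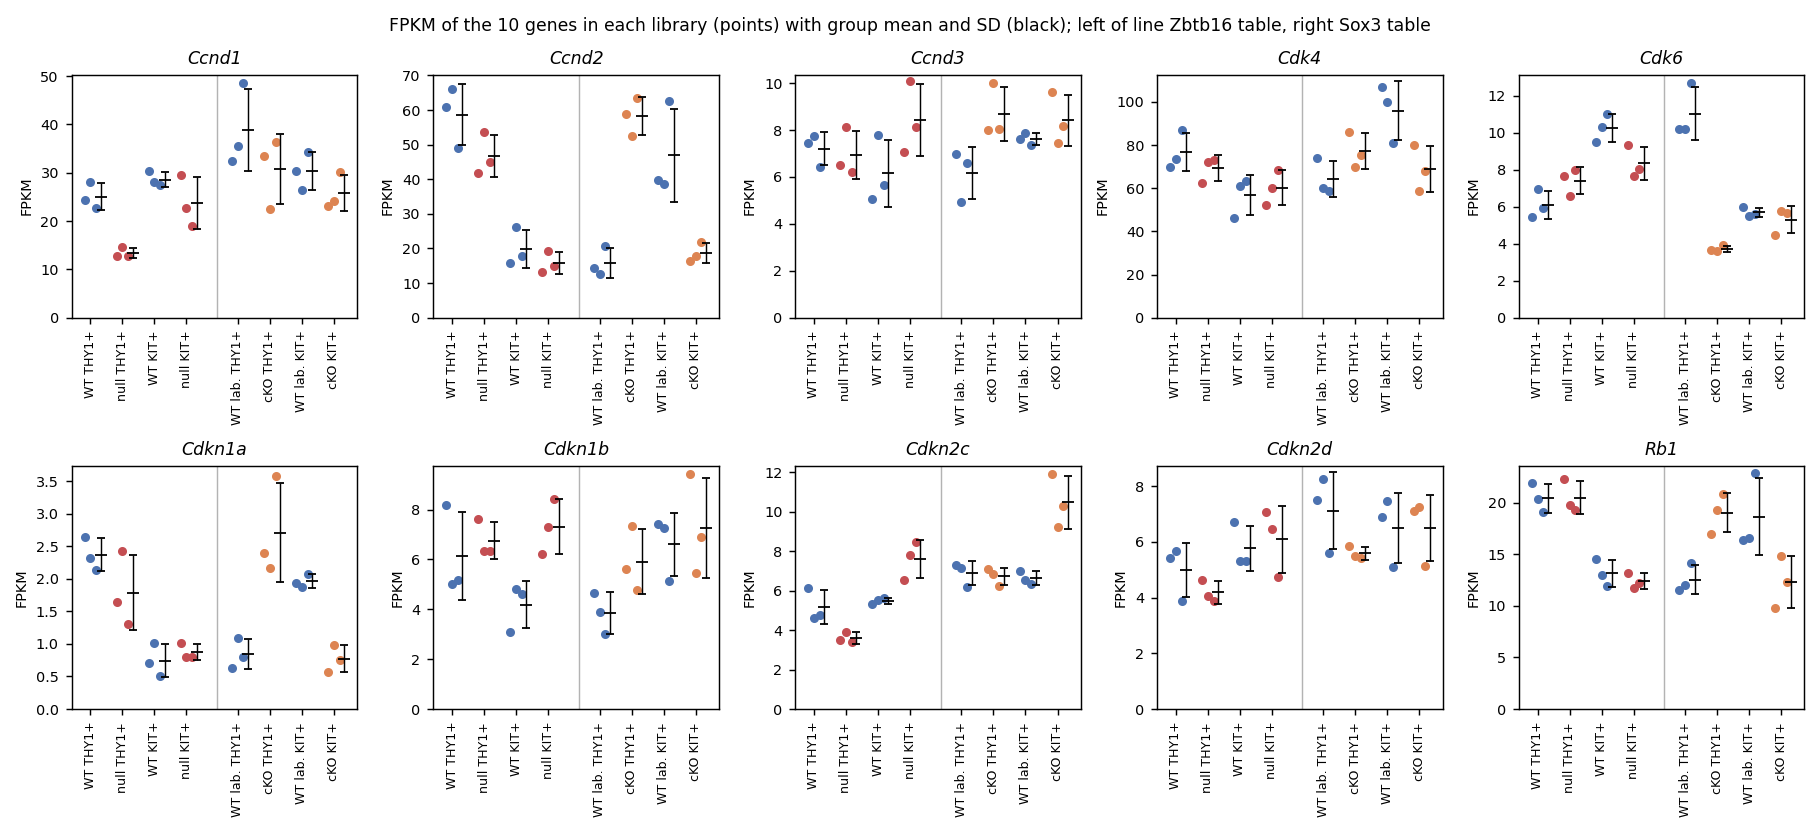
Each panel plots the FPKM (linear axis from 0) of 1 gene in the 24 libraries, with points for libraries and black marks for the mean and SD of 3 libraries. Ccnd1 was at 12.7 to 14.7 FPKM in null THY1+ uSPG and at 22.7 to 28.1 FPKM in WT THY1+ uSPG, and Cdk6 was at 3.62 to 3.93 FPKM in cKO THY1+ uSPG (lab. stands for labelled).

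The comparison of WT fractions asks how RNA levels differ between undifferentiated and differentiating spermatogonia. Ccnd2, Rb1 and Cdkn1a were lower and Cdk6 was higher in KIT+ dSPG than in THY1+ uSPG, and the other 6 genes were not called. The 4 calls of 10 compare with 21.2% of all 22374 genes called in either direction. The median log2 change of the 10 genes was -0.34, against -0.028 over all genes.

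Among the cyclins, Ccnd2 was at 60.8, 66.2 and 49.0 FPKM in WT THY1+ uSPG and 15.9, 26.1 and 17.7 FPKM in WT KIT+ dSPG. All THY1+ libraries were above all KIT+ libraries. The log2 change was -1.58 (SE 0.20, adjusted p 0.000149), a 2.98-fold lower level. Ccnd1 was at 24.3, 28.1 and 22.7 FPKM and then 30.3, 28.0 and 27.4 FPKM, with overlapping groups and a log2 change of 0.19 (95% confidence interval -0.12 to 0.51, adjusted p 0.347). The log2 difference of Ccnd3 was -0.24 (interval -0.64 to 0.15) and its groups overlapped as well. The split of D-type cyclin RNA was thus apart in all libraries of the fractions. Ccnd2 made up 62.7% to 65.7% of the summed cyclin FPKM in WT THY1+ uSPG and 31.1% to 42.2% in WT KIT+ dSPG, and Ccnd1 made up 26.3% to 29.0% and 45.3% to 59.1%.

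Of the kinases, Cdk6 was at 5.46, 6.95 and 5.91 FPKM in WT THY1+ uSPG and 9.52, 10.3 and 11.0 FPKM in WT KIT+ dSPG. The groups did not overlap, and the log2 change was 0.74 (SE 0.12, adjusted p 0.00105). Cdk4 was at 69.8 to 86.8 FPKM in THY1+ and 46.2 to 63.5 FPKM in KIT+ libraries, also without overlap. Its change of -0.44 (SE 0.14, adjusted p 0.0408) stayed below 1.5-fold and was not a call. Cdk6 thus made up 6.37% to 8.64% of the summed Cdk4 and Cdk6 FPKM in THY1+ uSPG and 14.4% to 17.1% in KIT+ dSPG.

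Among the inhibitors, Cdkn1a, a target of p53, was at 2.64, 2.32 and 2.14 FPKM in WT THY1+ uSPG and 0.710, 1.02 and 0.503 FPKM in WT KIT+ dSPG. The groups did not overlap, and the log2 change was -1.59 (SE 0.26, adjusted p 0.000883). The log2 difference was -0.53 (adjusted p 0.0885) for Cdkn1b, whose groups did not overlap, 0.09 (interval -0.21 to 0.40) for Cdkn2c and 0.22 (interval -0.18 to 0.63) for Cdkn2d. None of these 3 was called. Rb1, whose protein the cyclin D kinases phosphorylate, was at 21.9, 20.3 and 19.1 FPKM in the THY1+ and 14.5, 13.0 and 11.9 FPKM in the KIT+ libraries. The groups were apart, with a log2 change of -0.64 (SE 0.10, adjusted p 0.000681). This call was lost without WT THY1+ replicate 1 or without WT KIT+ replicate 3, where the change was -0.57 to -0.58 and thus below 1.5-fold.

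Cell type markers moved with the same contrast. All 10 markers of undifferentiated spermatogonia were lower and 3 of 5 markers of differentiating spermatogonia were higher in WT KIT+ dSPG. All 7 macrophage markers, 4 of 5 T cell markers, 3 of 6 peritubular and stromal markers, 1 of 5 endothelial and 1 of 5 germ cell markers were lower. All 6 Leydig cell markers were higher, and of 6 Sertoli cell markers 2 were higher and 1 was lower. Ccnd2 (ENSMUSG00000000184, GRCm38 chr6:127125162-127152193, minus strand), Cdkn1a (ENSMUSG00000023067, chr17:29090976-29100727, plus strand) and Rb1 (ENSMUSG00000022105, chr14:73183673-73325822, minus strand) share 8.11% or less of their exonic length with any single gene on the opposite strand. Rb1 overlaps both Rcbtb2 (8.11%) and Lpar6 (6.78%) there. Cdk4 shares 19.7% of its exonic length with Tspan31. What part the other cells had in the changes of Ccnd2, Cdkn1a, Rb1 and Cdk6 was not tested.

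Of 30 other genes of the G1 to S pathway, 2 were called between WT fractions, and of 10 proliferation markers such as Mki67 none was, with 4737 calls over all genes by limma. Ccne2, a cyclin that acts with CDK2 after the cyclin D kinases, had a mean of 18.2 FPKM (range 16.7 to 19.2) in THY1+ libraries and of 39.5 FPKM (range 26.0 to 59.1) in KIT+ libraries (log2 change 1.03, adjusted p 0.0134). Cdkn1c, the third CIP/KIP inhibitor, was at 21.0 and 11.5 FPKM (log2 change -0.89, adjusted p 0.00922).

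The fractions were also compared within each mutant. In the Zbtb16 null, 5 of the 10 genes were called between KIT+ dSPG and THY1+ uSPG, where 29.2% of all genes were called. Ccnd2 (log2 change -1.56), Rb1 (-0.72) and Cdkn1a (-0.93) were lower in null KIT+ dSPG, with adjusted p of 0.000108, 0.000183 and 0.0138. The call of Cdkn1a was lost without null THY1+ replicate 2, where its change was -0.70 (adjusted p 0.0541), and with 1 FPKM as pseudocount, where it was -0.56 and below 1.5-fold. Ccnd1 and Cdkn2c were higher. Ccnd1 was at 12.8, 14.7 and 12.7 FPKM in null THY1+ uSPG and 29.5, 22.7 and 19.0 FPKM in null KIT+ dSPG, a log2 change of 0.80 (SE 0.14, adjusted p 0.00112). Cdkn2c was at 3.50, 3.93 and 3.38 FPKM and 6.54, 7.83 and 8.46 FPKM, a log2 change of 1.05 (SE 0.14, adjusted p 0.000135). The groups of both genes were apart. Cdk6 had a log2 change of 0.17 (interval -0.10 to 0.44) in the null. Cdkn2d, the INK4 gene of p19, had one of 0.52 (adjusted p 0.0444), below 1.5-fold, and became a call at 0.68 without null KIT+ replicate 3. Of the 30 other G1 to S genes, 1 was called higher and 2 lower in null KIT+ dSPG. All 6 Leydig cell, 2 of 5 endothelial and 2 of 5 differentiating spermatogonia markers were called higher. All 10 undifferentiated spermatogonia, 3 of 5 germ cell, 7 of 7 macrophage and 4 of 5 T cell markers were called lower. Of 6 Sertoli cell markers 4 were called higher and 1 lower, and the part of these cells in the member changes was not tested.

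In the Sox3 cKO, 4 of the 10 genes were called between fractions, and 22.7% of all genes. Ccnd2 was at 58.9, 52.4 and 63.5 FPKM in cKO THY1+ uSPG and 16.4, 17.8 and 21.9 FPKM in cKO KIT+ dSPG, well apart, with a log2 change of -1.64 (SE 0.21, adjusted p 0.000170). Cdkn1a changed by -1.68 (adjusted p 0.000498) and Rb1 by -0.64 (adjusted p 0.0153). Cdkn2c was at 7.08, 6.86 and 6.26 FPKM and then 11.9, 9.22 and 10.3 FPKM, without overlap, and changed by 0.62 (adjusted p 0.00263). With replicates 2 and 3 alone, which leaves 2 libraries a group, or without cKO THY1+ replicate 3, Rb1 and Cdkn2c were no longer called. The same held without cKO KIT+ replicate 1, where Cdk6, at 0.48 (adjusted p 0.0184) in all libraries, became a call at 0.60. Cdkn2c was also not called with 1 FPKM as pseudocount, at 0.56. The cKO fractions also differed in their other cells, with 6 of 6 Leydig cell, 3 of 5 endothelial and 1 of 5 differentiating spermatogonia markers called higher in cKO KIT+ dSPG. All 10 undifferentiated spermatogonia, 2 of 5 germ cell, 7 of 7 macrophage and 4 of 5 T cell markers were called lower, and of 5 Sertoli cell markers 1 was called higher and 1 lower. The part of these cells was not tested.

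Ccnd2 was thus lower in the KIT+ fraction of WT, null and cKO, at -1.58, -1.56 and -1.64. Whether its fraction change differed between null and WT was tested by the interaction, at 0.02 (interval -0.60 to 0.63). Of the other 30 G1 to S genes, 2 were called in the cKO fractions, Myc at 0.94 (adjusted p 0.0323) and Ccne2 at 0.73 (adjusted p 0.00847), both higher in KIT+ dSPG.

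**Figure D2:**
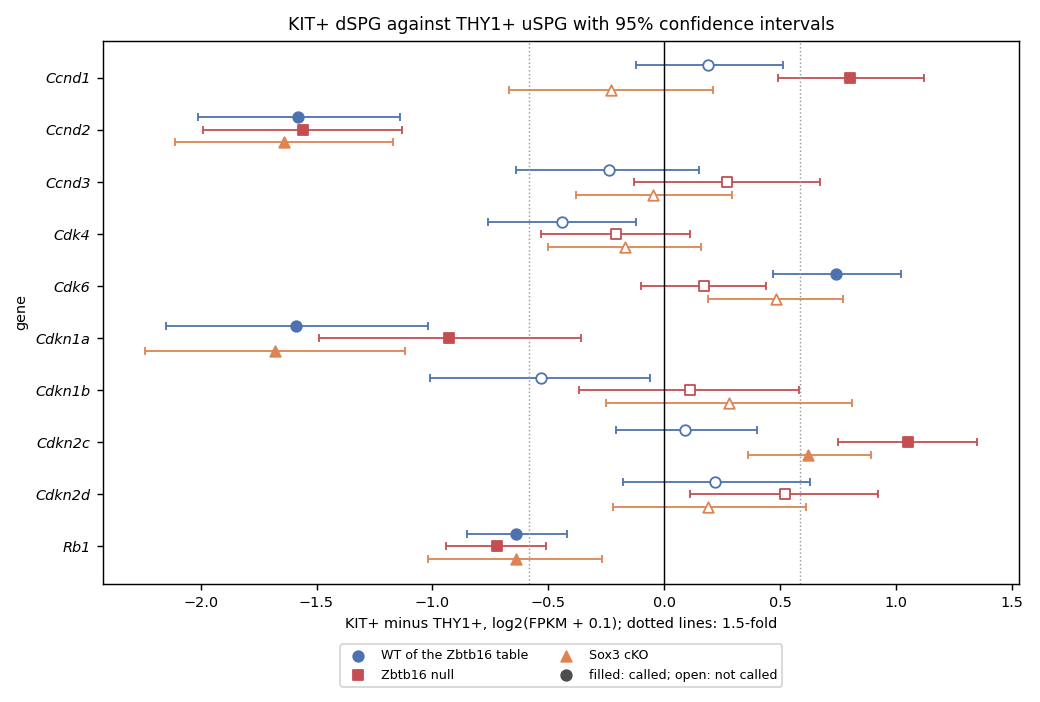
The horizontal axis is the log2 change from THY1+ uSPG to KIT+ dSPG for each of the 10 genes, with 95% confidence intervals, in WT of the Zbtb16 table, Zbtb16 null and Sox3 cKO. Ccnd2, Cdkn1a and Rb1 were lower in KIT+ dSPG in all 3 sets, and filled symbols of Ccnd1 and Cdkn2c lie to the right of 0 in the null at 0.80 and 1.05.

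The Zbtb16 null was then compared with WT within each fraction, which asks whether RNA of G1 control genes differs when ZBTB16, a transcription factor of undifferentiated spermatogonia, is lost. In THY1+ uSPG, Ccnd1 was lower in the null and the other 9 genes were not called. This 1 call of 10 compares with 3.98% of all 22374 genes, or 8.85% when the replicate number was used as a block. Ccnd1 was listed with this result known, since the study reports from these data that ZBTB16 activates it. The count of calls here, and in the average over both fractions below, is therefore no independent support. The median log2 change of the 10 genes was -0.19, against -0.027 over all genes.

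Ccnd1 was at 24.3, 28.1 and 22.7 FPKM in WT and 12.8, 14.7 and 12.7 FPKM in null THY1+ uSPG. All null libraries were below all WT libraries. The log2 change was -0.90 (SE 0.14, adjusted p 0.00613), a 1.86-fold lower level. Its size was -0.96 to -0.81 under 21 alternatives and it was a call in each. In KIT+ dSPG, Ccnd1 was at 30.3, 28.0 and 27.4 FPKM in WT and 29.5, 22.7 and 19.0 FPKM in the null, where the groups overlapped and the log2 change was -0.29 (interval -0.61 to 0.03, adjusted p 0.325). Averaged over both fractions the change was -0.59 (adjusted p 0.00856), which was 1 call of 10 beside 2.30% of all genes. That average lies at the 1.5-fold limit and was not a call under 7 of 20 alternatives. These were 1 FPKM as pseudocount and the fits without WT THY1+ replicate 2, WT KIT+ replicate 1, null THY1+ replicate 1 or 3, or null KIT+ replicate 2 or 3. Cdkn1b, at an average of 0.49 (adjusted p 0.109), became a call at 0.60 without WT THY1+ replicate 1.

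Ccnd1 (ENSMUSG00000070348, GRCm38 chr7:144929931-144939925, minus strand) overlaps at its end with Oraov1 (LTO1 in the annotation, chr7:144915100-144931701, plus strand), and 1100 exonic bases, 23.4% of the exonic length of Ccnd1, are shared between the strands. The strand used in counting was not given in the sources used here, so reads of both genes may not be separated. Oraov1 was at 8.45, 9.00 and 6.70 FPKM in WT THY1+ uSPG and 6.38, 5.93 and 4.95 FPKM in null THY1+ uSPG, below WT in all libraries. Its log2 change was -0.47 (SE 0.16, adjusted p 0.102), which was not a call.

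Other cells differed between the genotypes as well. In THY1+ uSPG the 7 macrophage markers summed to 770 to 867 FPKM in WT and 356 to 675 FPKM in the null, with all 7 lower in value and 1 called. The 6 Leydig cell markers summed to 83.1 to 119 and 49.8 to 79.6 FPKM and the 6 peritubular and stromal markers to 386 to 543 and 235 to 370 FPKM, and none of these 12 was called. The 5 germ cell markers summed to 888 to 1097 and 1040 to 1381 FPKM, with 1 called higher, and 1 of 10 undifferentiated spermatogonia markers was called lower. Their part in the lower Ccnd1 was not tested. Of 30 other G1 to S genes and 10 proliferation markers, none was called by limma in null THY1+ uSPG, where 890 of all 22374 genes (3.98%) were called. The proliferation markers summed to 412 to 471 FPKM in WT and 377 to 448 FPKM in the null, with overlap. In value 6 of them were lower and 4 higher in the null. Mki67 was among the lower ones, at 72.1 to 92.1 FPKM in WT and 51.5 to 68.3 FPKM in the null, without overlap. Without adjustment or a fold limit, 5325 genes had a p under 0.05.

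Cdkn2c (ENSMUSG00000028551, GRCm38 chr4:109660876-109667189, minus strand), which encodes the INK4 protein p18, took opposite positions in the 2 fractions. In THY1+ uSPG it was at 6.16, 4.61 and 4.77 FPKM in WT and 3.50, 3.93 and 3.38 FPKM in the null, and all null values were lower. In KIT+ dSPG the level was 5.33, 5.51 and 5.63 FPKM in WT and 6.54, 7.83 and 8.46 FPKM in the null, and all null values were higher. Neither difference was a call, at log2 changes of -0.50 (SE 0.14, adjusted p 0.0591) and 0.46 (SE 0.14, adjusted p 0.178). The genotype by fraction interaction, in which the THY1+ difference is subtracted from the KIT+ difference, was 0.96 (SE 0.19, interval 0.53 to 1.39, adjusted p 0.0906). It was not a call, and none of the 10 genes was, beside 0.0313% of all genes called for the interaction. Without null KIT+ replicate 1 that of Cdkn2c was a call at 1.06 (adjusted p 0.0405). In that test 5014 of 22374 genes had an unadjusted p under 0.05. The interaction of Ccnd1 was 0.61 (SE 0.20, adjusted p 0.131) and that of Cdk6 -0.58 (SE 0.18, adjusted p 0.113). The interaction spans 4 groups, and same-number libraries of null and WT deviated together within each fraction, while those of the WT fractions did so at r of 0.07 to 0.38. With the replicate number as a block, Cdkn2c (0.96, adjusted p 0.0200) and Ccnd1 (0.61, adjusted p 0.0374) were called, beside 12.3% of all genes.

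No gene of the 10 was called between null and WT KIT+ dSPG, where limma called 0.259% of all genes, or 2.29% with the replicate number as a block, and 3863 genes had an unadjusted p under 0.05. Cdkn1b, whose protein p27 restrains the G1 to S transition, was at 3.10, 4.82 and 4.62 FPKM in WT and 6.20, 7.31 and 8.44 FPKM in null KIT+ dSPG. The null values were all above WT, and the log2 change was 0.81 (SE 0.22, adjusted p 0.164). Cdk6 was at 9.52, 10.3 and 11.0 FPKM in WT and 9.33, 7.67 and 8.03 FPKM in the null, apart but close, with a log2 change of -0.30 (interval -0.57 to -0.03, adjusted p 0.260). Ccnd3 differed by 0.45 (adjusted p 0.245) with overlapping groups. The 10 proliferation markers summed to 471 to 514 FPKM in WT and 404 to 452 FPKM in null KIT+ dSPG, without overlap. In value 9 of them were lower and 1 higher in the null, and none was called. Mki67 was at 80.6 to 92.9 FPKM in WT and 62.1 to 71.0 FPKM in the null, also apart. The Leydig cell markers summed to 1215 to 2272 FPKM in WT and 2045 to 3122 FPKM in null KIT+ dSPG, and the peritubular and stromal markers to 153 to 285 and 242 to 461 FPKM. Differentiating spermatogonia markers summed to 319 to 328 FPKM in WT and 235 to 264 FPKM in null KIT+ dSPG, without overlap. Stra8 was the largest part, at means of 114 and 61.4 FPKM, and Kit was at 59.1 and 59.7 FPKM. In value 4 of these markers were lower and 1 higher. Sertoli cell markers summed to 60.6 to 91.2 and 102 to 132 FPKM, also without overlap. Clu was most of this sum, at means of 62.6 and 99.2 FPKM. In value 5 Sertoli cell markers were higher, and Wt1 was lower at 4.61 and 3.73 FPKM. Of 5 germ cell markers 4 were lower in value in the null, and all 5 endothelial markers were higher. None of the markers in these lists was called. What these cells had to do with the values of Cdkn1b and Cdkn2c was not tested.

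For the remaining genes the intervals give the size of difference that the data allow. Rb1 differed between null and WT by 0.00 (interval -0.21 to 0.22) in THY1+ uSPG and -0.08 (interval -0.30 to 0.13) in KIT+ dSPG. Cdk4 differed by -0.14 (interval -0.46 to 0.17) and 0.09 (interval -0.23 to 0.40). Ccnd2 was lower in value in both fractions, by -0.32 (interval -0.75 to 0.11) and -0.30 (interval -0.74 to 0.13), with overlapping groups. Cdkn1a, at few reads, had the widest interval in either fraction, at -0.43 (interval -0.99 to 0.14) and 0.23 (interval -0.33 to 0.80). Cdkn2d differed by -0.23 (interval -0.63 to 0.18) and 0.07 (interval -0.34 to 0.47). In THY1+ uSPG, Ccnd3 differed by -0.06 (interval -0.45 to 0.34), Cdk6 by 0.28 (interval 0.01 to 0.55, adjusted p 0.202) and Cdkn1b by 0.17 (interval -0.31 to 0.64), all with overlapping groups. Of these genes, Ccnd3 (ENSMUSG00000034165) lies at chr17:47505051-47599691 and Cdk4 (ENSMUSG00000006728) at chr10:127063534-127067920 on the plus strand. Cdkn1b (ENSMUSG00000003031) lies at chr6:134920401-134925513 on the plus strand, and Cdkn2d (ENSMUSG00000096472) at chr9:21288410-21291407 on the minus strand. Cdkn1b, Cdkn2c and Cdkn2d have no exonic overlap with a gene on the opposite strand.

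**Figure D3:**
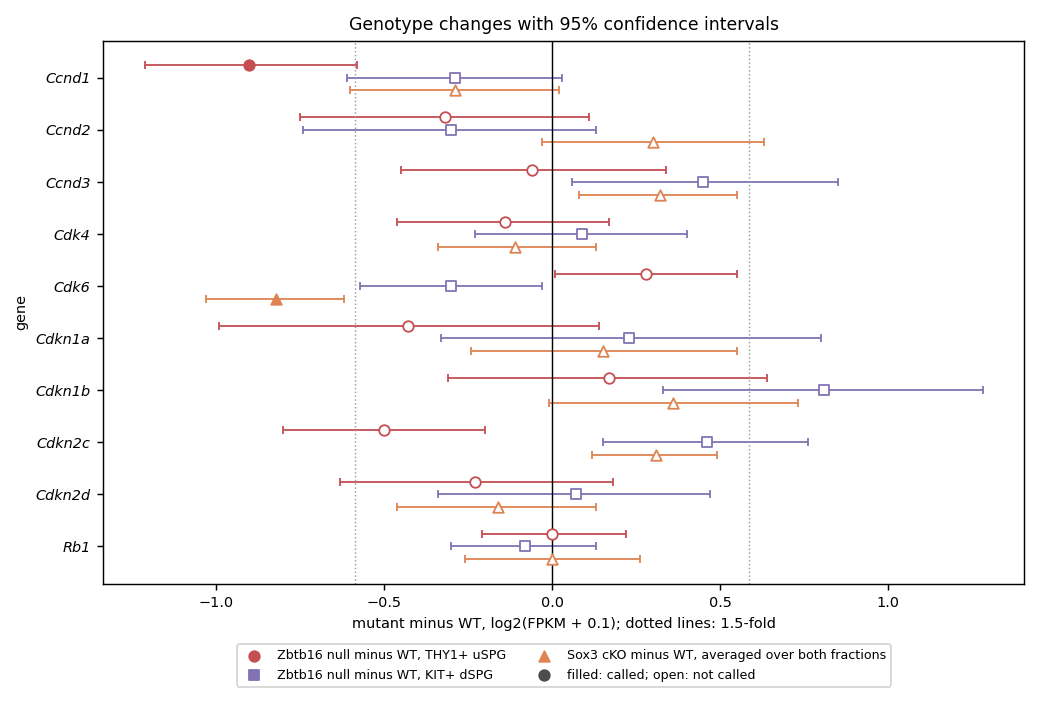
The horizontal axis is the log2 change from WT to mutant for each of the 10 genes, with 95% confidence intervals, for Zbtb16 null in each fraction and for Sox3 cKO averaged over both fractions. Filled symbols are calls, which are Ccnd1 in null THY1+ uSPG at -0.90 and Cdk6 in the cKO at -0.82.

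The share of each D-type cyclin is a value per library that does not depend on scaling between libraries. Ccnd1 made up 26.3%, 27.6% and 29.0% of the summed D-type cyclin FPKM in WT THY1+ uSPG and 20.9%, 19.2% and 19.8% in null THY1+ uSPG. The null values were all lower, with a mean difference of -7.64 points. In KIT+ dSPG it made up 59.1%, 45.3% and 54.0% in WT and 59.1%, 43.5% and 45.1% in the null, with overlap and a mean difference of -3.57 points. Over both fractions the mean difference was -5.61 points. A two-sided exact permutation test within fractions gave p = 0.0800 (0.160 adjusted over 2 shares tested, n = 12 libraries, smallest possible p 0.00500). Leaving out 1 library at a time gave -8.07 to -4.03 points with exact p of 0.010 to 0.275, the lowest p without null KIT+ replicate 1 and the highest without WT KIT+ replicate 1. The p was above 0.05 in the other 11 of these 12 fits. With libraries paired by replicate number, the exact sign-change test gave p = 0.0312 (0.0625 adjusted), the smallest that 64 sign changes allow. Both tests count THY1+ and KIT+ libraries of the same number as separate, although those of the null deviated together (r 0.31 to 0.52). Their p values may therefore be too small. The summed D-type cyclin FPKM was 78.1 to 102 in WT and 61.1 to 76.4 in null THY1+ uSPG, without overlap, and 50.8 to 61.9 and 42.2 to 52.2 in KIT+ dSPG, with overlap. Ccnd3, the least abundant D-type cyclin, made up 7.61% to 8.22% in WT and 9.73% to 10.6% in null THY1+ uSPG. The share of Cdk6 in the summed Cdk4 and Cdk6 FPKM differed by 2.29 points in THY1+ uSPG and -3.08 points in KIT+ dSPG, and by -0.399 points on average (exact permutation p = 0.745).

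**Figure D4:**
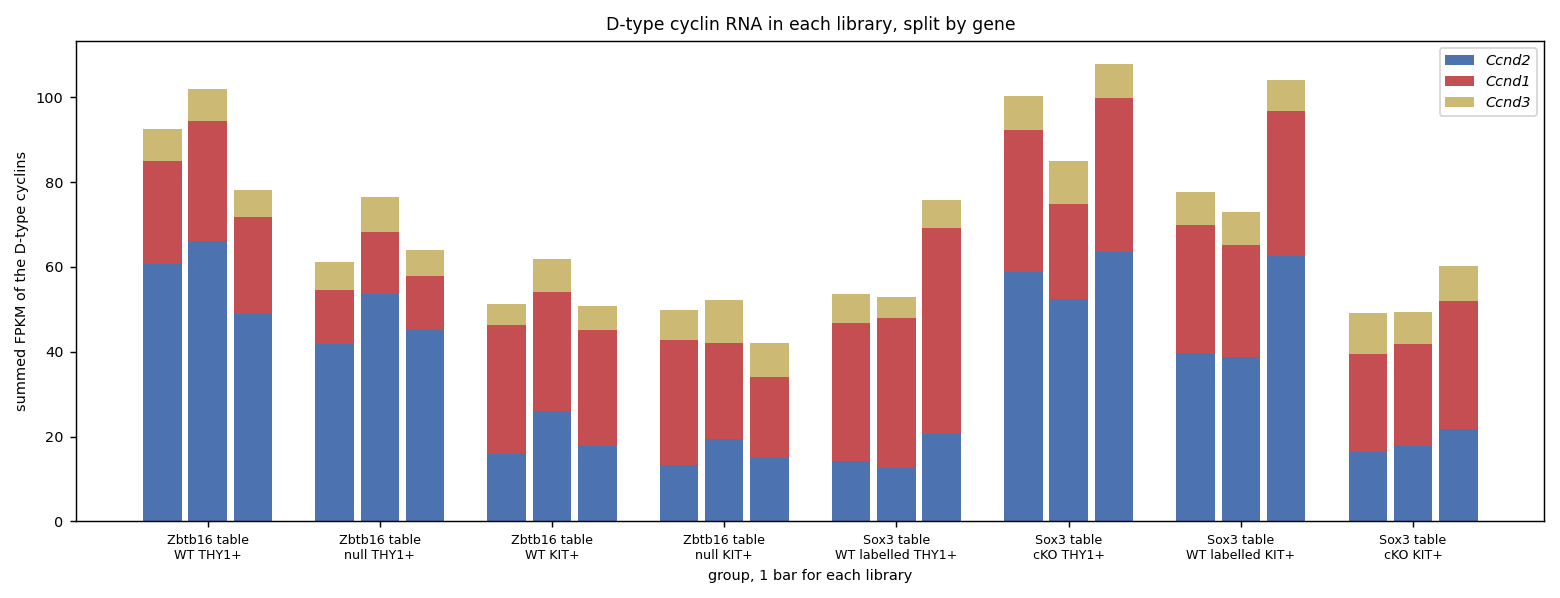
Each bar is 1 library, its height the summed FPKM (linear axis from 0) of the D-type cyclins, and colours split it by gene. Ccnd2 was the largest part in THY1+ uSPG of the Zbtb16 table (62.7% to 70.4%). In KIT+ dSPG it lay below Ccnd1 and above Ccnd3 (26.7% to 42.2%), and the WT bars of the Sox3 table show the reverse order of their labels.

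For Sox3, the genotype effect was averaged over both fractions, because this average is the same whichever way the 2 WT groups are assigned to fractions. Cdk6 was lower in the cKO and the other 9 genes were not called. This 1 call of 10 compares with 10.3% of all 21212 genes tested. The median log2 change of the 10 genes was 0.08, against 0.025 over all genes.

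Cdk6 (ENSMUSG00000040274, GRCm38 chr5:3341485-3531008, plus strand) was at 3.67, 3.62 and 3.93 FPKM in cKO THY1+ uSPG and 4.45, 5.75 and 5.68 FPKM in cKO KIT+ dSPG. It was at 10.2, 10.2 and 12.7 FPKM in WT labelled THY1+ and 5.99, 5.49 and 5.60 FPKM in WT labelled KIT+. The cKO THY1+ libraries were below every WT library, and the cKO KIT+ libraries overlapped WT labelled KIT+ alone. The averaged log2 change was -0.82 (SE 0.09, adjusted p 0.00152), a 1.77-fold lower level, and it was a call under 21 alternatives at -0.90 to -0.72. With replicates 2 and 3 alone, the libraries of lower depth, it was -0.76 (adjusted p 0.0401).

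Levels of other cells moved with this comparison too, with 4 of 6 Leydig cell, 2 of 5 Sertoli cell, 2 of 6 peritubular and stromal and 2 of 5 endothelial markers higher in the cKO. Of the spermatogonial and germ cell markers, 2 of 5 for differentiating, 1 of 10 for undifferentiated spermatogonia and 1 of 5 for germ cells were lower, and none of 7 macrophage and 5 T cell markers was called. Their part in the lower Cdk6 was not tested. Cdkn2c had an averaged change of 0.31 (SE 0.09, adjusted p 0.0246), which is below 1.5-fold, and Ccnd3 of 0.32 (adjusted p 0.0534).

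The other members were not called in the average, and their intervals were as follows. Ccnd1 was at 22.5 to 36.4 FPKM in the cKO and 26.4 to 48.5 FPKM in WT, with an averaged difference of -0.29 (interval -0.60 to 0.02). Ccnd2 had one of 0.30 (interval -0.03 to 0.63) and Cdk4 one of -0.11 (interval -0.34 to 0.13). Of the inhibitors, Cdkn1a, Cdkn1b and Cdkn2d differed by 0.15 (interval -0.24 to 0.55), 0.36 (interval -0.01 to 0.73) and -0.16 (interval -0.46 to 0.13). Rb1 differed by 0.00 (interval -0.26 to 0.26), at 9.81 to 20.8 FPKM in the cKO and 11.5 to 22.9 FPKM in WT.

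Comparisons as labelled are given for completeness, and the sorting markers contradict the WT labels in them. In THY1+, 4 of 10 genes were called beside 29.1% of all genes, with Ccnd2 (1.90), Cdkn1a (1.57) and Rb1 (0.60) higher and Cdk6 (-1.53) lower in the cKO. In KIT+, 4 of 10 were called beside 25.1% of all genes, with Ccnd2 (-1.30), Cdkn1a (-1.27) and Rb1 (-0.60) lower and Cdkn2c (0.64) higher. The directions of Ccnd2, Cdkn1a and Rb1 were thus opposite in the fractions as labelled, a difference that was not tested. The call of Rb1 was lost under 6 of 22 alternatives in either fraction, among them 1 FPKM as pseudocount, median ratio scaling and replicates 2 and 3 alone, that of Cdkn1a in KIT+ with replicates 2 and 3 alone, and that of Cdkn2c in KIT+ without cKO KIT+ replicate 1 and with 1 FPKM as pseudocount. For Rb1 the libraries whose omission ended the call were WT THY1+ replicate 1 or 2 and cKO THY1+ replicate 3 in THY1+, and WT KIT+ replicate 3 and cKO KIT+ replicate 1 in KIT+. In THY1+, Ccnd3 became a call at 0.59 without WT THY1+ replicate 1 and Cdkn1b at 0.60 without cKO KIT+ replicate 1, and in KIT+, Cdk4 at -0.60 and -0.59 without WT KIT+ replicate 3 or cKO KIT+ replicate 1.

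Groups with like sorting markers were then set against each other. Between cKO THY1+ uSPG and WT labelled KIT+, both high in Thy1, none of the 10 genes was called, beside 0.0707% of all genes, or 0.137% with the replicate block. In that comparison 2793 of 21212 genes had an unadjusted p under 0.05. Cdk6 was at 3.62 to 3.93 FPKM in the cKO and 5.49 to 5.99 FPKM in WT labelled KIT+, apart, with a log2 change of -0.59 (SE 0.13, adjusted p 0.181). Ccnd2 was at 52.4 to 63.5 and 38.7 to 62.5 FPKM, with overlap. Macrophage markers summed to 929 to 1065 FPKM in the cKO and 893 to 1135 FPKM in WT labelled KIT+. Germ cell markers summed to 919 to 1097 and 1152 to 1317 FPKM, without overlap. Also apart were the sums for differentiating spermatogonia (171 to 182 and 212 to 245 FPKM) and endothelial cells (20.5 to 34.1 and 13.5 to 16.8 FPKM). In value 4 of 5 differentiating spermatogonia markers were lower and 4 of 5 endothelial markers higher in the cKO. All 6 Leydig cell and all 6 peritubular and stromal markers were higher in value in the cKO. None of these markers was called, and their part in the Cdk6 values was not tested.

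Between cKO KIT+ dSPG and WT labelled THY1+, both high in Kit, 3 of the 10 genes were called beside 17.0% of all genes. Cdk6 was at 4.45, 5.75 and 5.68 FPKM in the cKO and 10.2, 10.2 and 12.7 FPKM in WT labelled THY1+, well apart, with a log2 change of -1.05 (SE 0.13, adjusted p 0.00176). Cdkn1b was at 9.43, 5.46 and 6.90 FPKM and 4.66, 3.89 and 3.01 FPKM, apart, with a change of 0.88 (adjusted p 0.0217). Cdkn2c was at 11.9, 9.22 and 10.3 FPKM and 7.31, 7.17 and 6.20 FPKM, apart, with a change of 0.59 (adjusted p 0.00684). The calls of Cdkn1b and Cdkn2c were both lost without WT THY1+ replicate 3, without cKO KIT+ replicate 1, with replicates 2 and 3 alone and under quantile normalization. The call of Cdkn1b was also lost without WT THY1+ replicate 2 or cKO KIT+ replicate 3 and when the libraries of the comparison were fitted alone (adjusted p 0.0503), and that of Cdkn2c with 1 FPKM as pseudocount (0.53) and median ratio scaling (0.57). Ccnd1 was at 23.1 to 30.1 FPKM in the cKO and 32.4 to 48.5 FPKM in WT labelled THY1+, apart, with a change of -0.57 (adjusted p 0.0574), and became a call at -0.69 without WT THY1+ replicate 1. The Leydig cell markers summed to 2493 to 4941 FPKM in cKO KIT+ dSPG and 1239 to 2004 FPKM in WT labelled THY1+, with 5 of 6 called higher. Also called higher were 4 of 5 endothelial, 3 of 7 macrophage, 2 of 6 peritubular and stromal and 1 of 5 Sertoli cell markers. Of differentiating spermatogonia markers 3 of 5 and of germ cell markers 2 of 5 were called lower, and of 10 undifferentiated spermatogonia markers 2 were called higher and 1 lower. What part these cells had in the 3 calls was not tested.

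Of 30 other G1 to S genes, 4 were called in the averaged Sox3 comparison. Rbl2, a relative of Rb1 (log2 change 0.73, adjusted p 0.00361), and Myc (0.73, adjusted p 0.0269) were higher. Mycn (-0.63, adjusted p 0.00372) and Cdkn2a, which encodes p16 and p19ARF (-0.60, adjusted p 0.0220), were lower. None of 10 proliferation markers was called by limma in this comparison, where 2188 of all genes were.

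Genes whose log2 values followed those of a member most closely over the 12 libraries of each table were looked up among 15870 genes. These correlations are descriptions across libraries of 4 groups, with the fractions in common. Ccnd1 was followed most closely by its overlapping neighbour Oraov1 (Pearson r 0.93 for the Zbtb16 and 0.95 for the Sox3 libraries) and then by Tbc1d22a (0.83 and 0.82) and Recql4 (0.81 and 0.81). Ccnd2 was followed by Aplp1 (0.99 and 0.99), Zfp462 and Nefm, and Cdkn1a by Galc (0.97 and 0.95), Ank and Adap2.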

How the data were processed

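RNA was sequenced from sorted P7 spermatogonia, in 24 libraries of 8 groups taken from the GEO labels. The authors removed ribosomal RNA, made stranded libraries and aligned single reads to mm10 with Novoalign (per the labels), allowing reads at repeated positions. They computed FPKM per gene with USeq, and these deposited FPKM, in 1 table for each mutant, are the values used here. The authors' DESeq2 test needs counts, so limma 3.58.1 (R 4.3.3) was used instead.

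Values were taken as log2(FPKM + 0.1), for genes with a mean of at least 0.1 FPKM over the 12 libraries of a table. A model with 4 group means was fitted to each table, with eBayes (trend and robust) moderating the variances, with two-sided tests and Benjamini-Hochberg adjustment within each of 12 comparisons. Calls used the study's thresholds, 0.05 for the adjusted p and 1.5-fold for the change. The 2 shares were compared by exact permutation of genotype within fractions.

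Reads per library were estimated from the steps of low FPKM over the exonic lengths of GENCODE vM21, and 79.3% to 83.3% of these values were whole within 0.05 reads. Read numbers limit counting precision only, since reads carry no molecular identifiers.

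Labels number the replicates. Deviations from group means were correlated across genes, which are not independent, between libraries of different groups. The numbers were taken to pair the libraries where every same-number correlation exceeded 0.1. This held for null against WT in THY1+ uSPG (0.13 to 0.47) and KIT+ dSPG (0.36 to 0.52), for the null fractions (0.31 to 0.52) and for cKO THY1+ against WT labelled KIT+ (0.13 to 0.27). The main limma fits and the permutation test of the shares did not use this pairing, so their p values are unpaired. Pairing by number entered only the replicate block and the sign-change test of the shares.

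Named genes are the 10 members, the targeted genes, the sorting markers and, of 30 other G1 to S genes, the called ones in the genotype comparisons of Zbtb16 within fractions, the averaged Sox3 comparison and the fractions of WT and cKO, at most 5 in each. Genes of like pattern were the 3 with the highest smaller correlation of both tables, among genes with a mean of at least 1 FPKM in both. Oraov1 was added after its values were seen. The members, the marker lists (9 cell types, 10 proliferation genes) and the comparisons were chosen with earlier results of these data known. The methods were tested on simulated data. Other pseudocounts, filters, scalings, left-out libraries and a replicate block were tried.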

Additional observations from a re-analysis of the deposited data

Results flagged for a closer look

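Cdkn2c was singled out because the sign of its genotype difference turned between the fractions in every library of the Zbtb16 table. All 3 null THY1+ libraries lay below and all 3 null KIT+ libraries above the WT libraries of their fraction. The difference of the changes was 0.96 on the log2 scale (limma interaction, adjusted p 0.0906), which was not a call. This interaction rests on the same values that singled out the gene. An unadjusted interaction p under 0.05 was reached by 5014 of 22374 genes. How many of all genes turned sign in this way was not counted.

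In the Sox3 table, Ccnd2, Cdkn1a and Rb1 were singled out for the same reason under the labels as given. All cKO libraries labelled THY1+ lay above and all cKO libraries labelled KIT+ below the WT libraries with that label. The KIT+ change less the THY1+ change was -3.20 for Ccnd2, -2.84 for Cdkn1a and -1.20 for Rb1 on the log2 scale. This difference was not tested. Thy1 and Kit went against the labels of the WT libraries in this table, and the groups with like markers gave changes of 0.34 and 0.26 for Ccnd2, 0.42 and -0.11 for Cdkn1a, and 0.04 and -0.04 for Rb1.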

How the results depend on the processing

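Of 27 member changes that were called, 16 were called under every alternative tried, and no called change turned its direction. The number of the 10 genes called moved as follows. In the Zbtb16 interaction it went from 0 to 2 with the replicate block, and from 0 to 1 over the fits without 1 library, where 1 came without null KIT+ replicate 1. In the averaged Zbtb16 comparison it went from 1 to 0 with 1 FPKM as pseudocount and from 0 to 2 over the fits without 1 library. Between the cKO fractions it went from 4 to 2 with replicates 2 and 3 alone and to 2 to 4 without 1 library. As labelled in KIT+ it was 2 in place of 4 with 1 FPKM as pseudocount and with replicates 2 and 3 alone. Between cKO KIT+ and WT labelled THY1+ it was 1 in place of 3 with quantile normalization and with replicates 2 and 3 alone, and 1 to 4 without 1 library. The difference in the Ccnd1 share was -8.07 to -4.03 points without 1 library. It was -5.61 points (p = 0.0312, exact sign-change test) when libraries were paired by number, with the fractions of a number counted as separate. The difference in the Cdk6 share was -1.12 to 0.0608 points without 1 library and turned positive, at 0.0166 and 0.0608, without WT KIT+ replicate 1 or null KIT+ replicate 3. The cause of these shifts was not tested.

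Calls over all genes moved more. With 1 FPKM as pseudocount they were 565 in place of 890 between null and WT THY1+ uSPG, 25 in place of 58 in KIT+ dSPG, 45 in place of 7 for the interaction, 157 in place of 514 for the average, 2883 in place of 4737 and 4070 in place of 6532 between the WT and null fractions, and 1024 in place of 2188 for the Sox3 average. With genes of a mean of at least 1 FPKM they were 468, 244, 3139, 4332 and 9 for null against WT THY1+ uSPG, the Zbtb16 average, the WT fractions, the null fractions and cKO THY1+ against WT labelled KIT+ (15 in all genes tested), where fewer genes were tested. Fitting the libraries of a comparison alone left 2 between null and WT KIT+ dSPG and 1 between cKO THY1+ and WT labelled KIT+. Median ratio scaling left 2 for the interaction. With replicates 2 and 3 alone they were 2480 in place of 4809 between the cKO fractions, 597 for the Sox3 average, 3291 in place of 5314 as labelled in KIT+, 0 between cKO THY1+ and WT labelled KIT+, and 987 in place of 3608 between cKO KIT+ and WT labelled THY1+.

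Without null THY1+ replicate 1 or 3, or WT THY1+ replicate 1 or 2, calls between null and WT THY1+ uSPG were 296, 373, 345 and 362. In KIT+ dSPG they were 25 to 42 without 1 library, and for the interaction 1 to 867, the highest without null KIT+ replicate 1. The Zbtb16 average had 342 without null THY1+ replicate 1, cKO THY1+ against WT labelled KIT+ had 5 to 15, and cKO KIT+ against WT labelled THY1+ had 2334 without WT THY1+ replicate 2. Quantile normalization moved the split into higher and lower calls from 1614 and 3123 to 2427 and 2486 between the WT fractions, from 1588 and 600 to 1094 and 808 for the Sox3 average, from 3768 and 2398 to 2911 and 3198 as labelled in THY1+, and from 2638 and 970 to 1917 and 1308 between cKO KIT+ and WT labelled THY1+.

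Same-number libraries deviated together in 16 of 18 pairs at r over 0.1 in the Zbtb16 and 12 of 18 in the Sox3 table, and 11 of 12 and 9 of 12 libraries correlated best with their own number. The replicate block raised interaction calls from 7 to 2756, among them Cdkn2c and Ccnd1, and made Cdkn1b a call (0.60, adjusted p 0.0305) as labelled in THY1+. It changed no other call of the 10 genes. Depth limits Cdkn1a most, at 31 to 282 estimated reads.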
